A study of Mus musculus with 12 samples.

Results

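Tangentially migrating cortical interneurons read a small set of guidance cues, and 10 genes for these ligands, receptors and the migration machinery were examined here, out of 21938 protein-coding genes in the mouse annotation. They were chosen by name: the chemokine *Cxcl12* with its receptors *Cxcr4* and *Ackr3*, the neuregulin *Nrg1* with its receptor *Erbb4*, the semaphorin co-receptors *Nrp1* and *Nrp2*, the Slit receptors *Robo1* and *Robo2*, and *Dcx*, which encodes the microtubule-associated protein doublecortin. The cells came from the neocortex of *Gad67-GFP* heterozygote pups of either sex at postnatal day (P)2, on a mixed CD-1 outcrossed background, with no other allele or agent in either population. GFP+ cells (cortical interneurons, CINs) and GFP- cells (non-CINs) were separated by FACS, and each sample pooled the tissue of several litters. GFP marks cells that express *Gad67* (*Gad1*), which makes GABA, so the CIN gate takes all such cells of the cortex, and the non-CIN gate takes every other cell, mainly projection neurons (PNs) and glia. Native ChIP, in which nuclease-digested chromatin is precipitated without crosslinking, was performed for H3K27ac, a mark of active promoters and enhancers, and H3K27me3, the mark laid down by Polycomb complexes at repressed or poised genes. Each mark and population had 2 replicates, which gives 8 peak lists, each called against its matched input.

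CXCL12 made by the meninges and by cells of the intermediate zone holds interneurons in their migratory streams. CXCR4 signals in response to it, and ACKR3 (also known as CXCR7) mainly takes the chemokine up and so tunes CXCR4. Neuregulins attract interneurons that carry the receptor tyrosine kinase ERBB4. Neuropilins with plexins turn the cells away from semaphorin-rich territory such as the striatum, and Robo receptors bind Slits. Doublecortin stabilizes the microtubules of the leading process and is a general label of young migrating neurons.

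In each list the peaks were counted from 5 kb upstream of the gene start to the gene end (the window), and the bases they covered were summed. The strength of a peak is given as the percentile of its fold enrichment over input within its own list, since fold enrichment is not comparable between lists. A promoter was taken as the stretch from 1 kb before to 100 bp after a transcription start site (TSS), and its percentile is that of the strongest peak meeting this stretch, which need not lie over the TSS itself. The windows ran from 9.1 kb at *Cxcr4* to 1081 kb at *Erbb4*, and none overlapped another protein-coding gene. All 10 members had an H3K27me3 peak in at least 1 list, and 9 had an H3K27ac peak, *Cxcl12* being the exception. A list records calls only. A mark on more cells of a population and more of the mark per cell cannot be told apart in it, and where no peak is listed, the mark was not detectable at the depth and threshold of that list.

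The H3K27ac lists held 46040 to 62505 peaks (40.8 to 56.3 Mb) and the H3K27me3 lists 36662 to 45081 peaks (34.5 to 49.8 Mb). For H3K27ac, replicate 1 was the longer list in both populations, and for H3K27me3 replicate 2 covered more of the genome in both. Of 14 CIN marker genes, 12 had an H3K27ac peak and 9 of these had more covered bp in both CIN lists than in both non-CIN lists, including *Gad1*, *Gad2*, *Slc32a1* and 4 *Dlx* genes. *Lhx6* and *Sst*, which mark interneurons of the medial ganglionic eminence, had no H3K27ac peak in any list. Of 8 astrocyte and radial glia markers 7 had more in both non-CIN lists, as did the microglial genes *Cx3cr1* and *P2ry12*, which still had 4978 to 6995 bp covered in the CIN lists. PN markers did not go one way, since *Bcl11b*, *Cux2* and *Slc17a6* were above in the CIN lists and *Emx1* and *Fezf2* in the non-CIN lists. The oligodendrocyte list had 1 gene above in each population, the endothelial list 1 above in CINs, the pericyte and meningeal list 1 above in CINs and 2 above in non-CINs, and the Cajal-Retzius list 0. The part these other cells play in the values below was not tested.

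The regions that carry the clearest contrast between the populations are shown first. A CIN-only region was a stretch of H3K27ac called in both CIN replicates, with no peak in the non-CIN list of the same replicate number. There were 13 in the windows, of 4182 in the genome, and 12 of them were intronic. The count in the windows was 6 when the replicates had to share 50% of both peaks, 23 without replicate 1 and 36 without replicate 2. Regions of the opposite kind (non-CIN-only) numbered 2 in the windows, of 2775 in the genome, and 4 with no merging or with no replicate block, 12 without replicate 1 and 17 without replicate 2. The 200 bp at the centre of 6 are given as the plus strand of mm10 (GRCm38.p6), with 3 short motif cores in capitals wherever a script found them on either strand. TAATTA is the homeodomain core bound by DLX factors and reads the same on both strands. The SOX core was CTTTGT, which reads ACAAAG when it lies on the minus strand. The MEIS core was CTGTCA, which then reads TGACAG. No core found here overlapped another. The 3 *Dcx* regions are shown because that gene had the largest ratio of CIN to non-CIN coverage, the 2 *Erbb4* regions because they are its strongest, and the *Nrg1* region because it goes against the difference in its gene's total.
Dcx intron at 30.8 kb from the gene start, chrX:143902401-143902600: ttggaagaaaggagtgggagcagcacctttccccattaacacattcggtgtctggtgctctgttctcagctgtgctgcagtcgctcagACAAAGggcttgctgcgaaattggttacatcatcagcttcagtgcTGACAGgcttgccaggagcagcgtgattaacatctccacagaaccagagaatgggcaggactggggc
Dcx intron at 35.1 kb, chrX:143898095-143898294: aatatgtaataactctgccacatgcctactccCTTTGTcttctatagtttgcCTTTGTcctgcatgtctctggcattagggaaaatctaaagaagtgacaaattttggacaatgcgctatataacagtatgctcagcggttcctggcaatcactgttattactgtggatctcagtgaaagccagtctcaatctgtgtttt
Dcx intron at 51.7 kb, chrX:143881512-143881711: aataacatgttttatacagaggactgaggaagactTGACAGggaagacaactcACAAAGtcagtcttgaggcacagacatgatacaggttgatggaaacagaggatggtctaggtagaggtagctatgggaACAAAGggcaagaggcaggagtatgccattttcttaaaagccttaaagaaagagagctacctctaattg
Erbb4 intron 1 at 98 kb, chr1:69010001-69010200: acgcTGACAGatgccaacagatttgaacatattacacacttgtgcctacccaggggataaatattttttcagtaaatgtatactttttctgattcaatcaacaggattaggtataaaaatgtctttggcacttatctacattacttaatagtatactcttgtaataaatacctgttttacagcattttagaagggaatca
Erbb4 intron 2 at 441 kb, chr1:68666953-68667152: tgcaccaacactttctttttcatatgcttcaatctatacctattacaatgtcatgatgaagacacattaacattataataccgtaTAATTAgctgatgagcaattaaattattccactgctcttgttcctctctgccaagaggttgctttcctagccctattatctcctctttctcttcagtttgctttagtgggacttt
Nrg1 intron 1 at 90.8 kb, chr8:32793100-32793299: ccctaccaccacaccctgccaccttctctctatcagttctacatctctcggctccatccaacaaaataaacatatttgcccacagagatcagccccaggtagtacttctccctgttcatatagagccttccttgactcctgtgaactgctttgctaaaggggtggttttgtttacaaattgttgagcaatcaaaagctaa

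All 3 *Dcx* sequences held a SOX core, and those at 30.8 and 51.7 kb held a MEIS core as well. The *Erbb4* sequence at 441 kb was the only one of the 13 CIN-only regions with a DLX core, and the *Nrg1* sequence held none of the cores. Over all 13 regions, 7 had at least 1 core, 4 a SOX core and 4 a MEIS core. Among the 4181 CIN-only regions on assembled chromosomes, 10.9% held the DLX core, 27.4% the SOX core, 19.2% the MEIS core and 47.4% any of them. In 27488 regions shared by both populations the same 4 shares were 4.35%, 19.3%, 13.3% and 32.7%. The 13 regions are too few to set against these shares. A match is a run of letters and not a bound site.

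Promoters of 9 members were matched in the RefSeq promoter table (GRCm38.p6; 250 bases before to 50 after a start), and 3 are shown because they stand for the promoter states described below. CpG dinucleotides are in capitals and each sequence runs 5′ to 3′ on the strand of its gene.
Dcx, chrX:143933170-143933469, minus strand: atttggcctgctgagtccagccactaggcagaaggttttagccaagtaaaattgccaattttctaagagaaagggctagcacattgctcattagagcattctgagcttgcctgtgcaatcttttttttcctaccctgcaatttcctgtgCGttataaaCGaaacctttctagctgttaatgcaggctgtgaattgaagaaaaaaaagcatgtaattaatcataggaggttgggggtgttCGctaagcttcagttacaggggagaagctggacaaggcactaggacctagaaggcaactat
Cxcl12, chr6:117168285-117168584, plus strand: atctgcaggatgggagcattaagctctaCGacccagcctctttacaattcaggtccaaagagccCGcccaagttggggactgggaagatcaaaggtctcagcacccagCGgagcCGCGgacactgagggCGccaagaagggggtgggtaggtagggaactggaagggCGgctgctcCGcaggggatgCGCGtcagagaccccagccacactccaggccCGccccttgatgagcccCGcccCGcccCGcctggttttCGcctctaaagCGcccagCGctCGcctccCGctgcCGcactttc
Nrp2, chr1:62703067-62703366, plus strand: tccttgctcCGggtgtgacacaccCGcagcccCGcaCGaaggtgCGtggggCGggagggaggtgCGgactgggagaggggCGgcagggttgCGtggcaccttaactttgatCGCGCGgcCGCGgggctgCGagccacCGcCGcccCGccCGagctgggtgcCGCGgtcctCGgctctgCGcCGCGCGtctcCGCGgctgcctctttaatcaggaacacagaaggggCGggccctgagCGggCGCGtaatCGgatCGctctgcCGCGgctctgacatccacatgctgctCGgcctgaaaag

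The *Dcx* promoter had 3 CpGs, the *Cxcl12* promoter 20 and the *Nrp2* promoter 37. Of all 32851 promoters in the table, 31.4% had no more than 3 CpGs, 26.5% had at least 20, and the median was 7. The *Dcx* sequence held 1 TAATTA, a core found in 5.29% of all promoters, and the other pair held none of the 3 cores.

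Across the set, H3K27ac covered more of the window in both CIN lists than in both non-CIN lists at 6 of the 9 members with a peak (*Ackr3*, *Erbb4*, *Nrp2*, *Robo1*, *Robo2* and *Dcx*), against 18.1% of the 14672 protein-coding genes with a peak. *Nrg1* and *Nrp1* had more in both non-CIN lists, 2 of 9 beside 18.0% of all genes, and the groups overlapped at *Cxcr4*. Among windows of 50 kb or more, a division made after the values were seen, the CIN lists were above at 5 of 7 members and at 19.1% of genes. Among windows of 500 kb or more they were above at 3 of 4 members and at 31.3% of genes. With 2 lists against 2, the two-sided exact permutation test over lists cannot give a p-value below 0.333, and each non-overlapping contrast reached that value. The groups are therefore described by their values, and none passes the usual significance threshold.

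**Figure D1:**
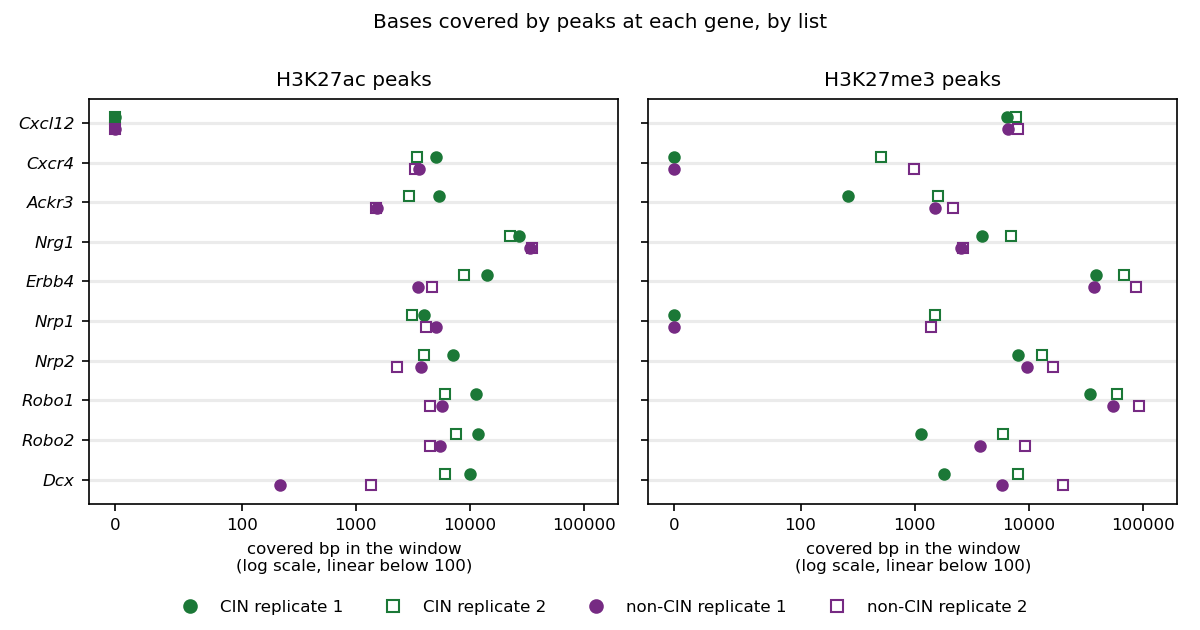
Bases covered by H3K27ac peaks (left) and H3K27me3 peaks (right) in the window of each member, on an axis that is logarithmic above 100 bp and linear below. Each point is 1 list, green for CINs and purple for non-CINs, filled for replicate 1 and open for replicate 2; the widest H3K27ac gap on this axis is at *Dcx*, where the green points lie at 10085 and 6022 bp and the purple points at 217 and 1351 bp.

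*Cxcl12*, the ligand, was the one member with no H3K27ac peak in either population. Its window instead held a single H3K27me3 domain over the promoter and into the gene. H3K27me3 covered 6495 and 7741 bp in the CIN lists, against 6553 and 8031 bp in the non-CIN lists, so the populations overlapped. The promoter peak was among the strongest of each list, at percentiles 98.3 and 97.8 in CINs, against 98.4 and 97.7 in non-CINs. In CIN replicate 1 it ran from chr6:117167068 to 117173240, a length of 6173 bp, and in the other lists it was 5236 to 6301 bp long. The 17.8 kb window was 36.4% to 45% covered, the highest H3K27me3 share of the set in all 4 lists. The domain lies over the CpG-rich promoter printed above.

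*Cxcr4*, the signalling receptor for CXCL12, had the reverse state. H3K27ac covered 5012 and 3471 bp in the CIN lists, against 3603 and 3303 bp in the non-CIN lists, or 36.3% to 55.1% of its 9.1 kb window. The groups overlapped, since CIN replicate 2 was below non-CIN replicate 1, although within each replicate number the CIN list was higher, by 1409 and 168 bp. The difference of means turned from 788.5 to -100 bp at −log10 q of at least 4 and to -383 bp with the strongest 30000 peaks of each list. In the other direction, both CIN lists were above both non-CIN lists when coverage was scaled to the covered length of each list, and over the gene body without the upstream stretch. The strongest promoter peak ranked at percentiles 67.4 and 60.3 in CINs, against 66.5 and 54.6 in non-CINs. No H3K27me3 peak touched the promoter. A short H3K27me3 peak lay further upstream in replicate 2 of each population (502 bp in CINs and 977 bp in non-CINs).

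*Ackr3*, the atypical receptor that takes up CXCL12, had more H3K27ac in both CIN lists. H3K27ac covered 5318 and 2936 bp in CINs, with non-CINs at 1537 and 1507 bp, a ratio of means of 2.71 (4127 ± 1684 bp against 1522 ± 21.2 bp, SD, n = 2), with 3.46 within replicate 1 and 1.95 within replicate 2. The promoter peak was at percentiles 70.7 and 71.2 in CINs, against 35.9 and 49.0 in non-CINs. A second stretch, overlapping an exon 4.25 kb into the gene, was called in both CIN lists at percentiles 61.3 and 54.4 and in 1 non-CIN list at 1.3. The order was not the same for every peak, as the strongest *Ackr3* peak of any list, at percentile 87.8, was a 495-bp intronic peak of non-CIN replicate 1. H3K27me3 covered 260 and 1609 bp in CINs, with non-CINs at 1492 and 2155 bp, and in the promoter it was called in 3 lists, CIN replicate 1 being without it.

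*Nrg1*, the ligand of ERBB4, differed in the other direction, over one of the longest windows of the set. H3K27ac covered 26707 and 22611 bp in CINs, with non-CINs at 33694 and 34633 bp, so both non-CIN lists were above both CIN lists (ratio of means 0.72, 24659 ± 2896 bp against 34163.5 ± 664 bp). Of 41 separate H3K27ac stretches in the 1074-kb window, 14 were called in all 4 lists. *Nrg1* makes several protein types from separate promoters, and these were not alike. The promoter of the longest transcripts, at the gene start, ranked at percentiles 73.6 and 70.0 in CINs, against 75.1 and 61.3 in non-CINs. H3K27me3 at its first TSS was called in neither CIN list and at 35.6 and 32.4 in non-CINs. At the TSS 0.167 kb further in, H3K27me3 was called in CIN replicate 2, at 65.1, and in non-CIN replicate 1, at 35.6. The promoter 875 kb into the gene, which starts 6 annotated transcripts, ranked at 48.7 and 57.1 in CINs, against 80.3 and 84.0 in non-CINs, with no overlap between populations. H3K27me3 was called just before this promoter in all 4 lists (chr8:32010130-32012083), at 28.2 and 79.1 in CINs, against 11.3 and 59.8 in non-CINs, and the CIN peaks alone reached to within 1 kb of its outermost TSS. The promoter 966 kb into the gene ranked at 66.3 and 63.3 in CINs, against 58.6 and 45.4 in non-CINs, the opposite order.

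H3K27me3 at *Nrg1* covered 3907 and 6979 bp in CINs, with non-CINs at 2540 and 2624 bp (ratio of means 2.11). *Nrg1* was the 1 of 10 members with more H3K27me3 in both CIN lists, beside 7.34% of the 8941 genes with a peak. At −log10 q of at least 4 its groups overlapped, at 1113 and 5927 bp in CINs, with non-CINs at 866 and 1161 bp. Against this direction, its window held the CIN-only region printed above, in intron 1, at chr8:32793003-32793397, where the CIN peaks ranked at 90.6 and 71.0. A second CIN-only region lay in intron 5, with percentiles 48.0 and 3.1. The 1 non-CIN-only region, at chr8:32712555-32712721, was weak, at percentiles 6.6 and 12.8. With no merging or with no replicate block, *Nrg1* held 3 non-CIN-only regions. It held 10 without replicate 1 and 11 without replicate 2, beside 2 and 5 CIN-only regions.

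*Erbb4*, the neuregulin receptor, held 4 of the 13 CIN-only regions, and 1 of 6 when the replicates had to share 50% of both peaks. Under that setting *Robo1* held 2. Without replicate 2 *Erbb4* held 12, and without replicate 1 it held 4. H3K27ac covered 14082 and 8920 bp in CINs, with non-CINs at 3521 and 4650 bp, a ratio of means of 2.82 (11501 ± 3650 bp against 4085.5 ± 798 bp, SD, n = 2), with 1.92 within replicate 2 and a higher ratio within replicate 1. Both CIN lists were above both non-CIN lists. Of 16 separate stretches, 4 were called in all 4 lists, 4 in both CIN lists only and 8 in 1 list only, while none was in both non-CIN lists only. All 8 of the single-list stretches came from CIN replicate 1, the longest H3K27ac list. A stretch over the promoter and into the gene (chr1:69104583-69108410) was called in all 4 lists, with its strongest peaks at percentiles 76.2 and 63.3 in CINs, against 47.4 and 37.4 in non-CINs. Within 1 kb before to 100 bp after the first TSS, H3K27ac was called at 37.2 and 36.2 in CINs and in neither non-CIN list, and at the TSS 0.303 kb further in, also in non-CIN replicate 1, at 2.1. The stretch 760 kb into the gene was in all lists but ranked at 77.1 and 73.7 in CINs, against 43.4 and 31.5 in non-CINs. An intronic stretch at 146 kb, also in all lists, went the other way. It ranked at 33.1 and 45.5 in CINs, against 51.1 and 64.2 in non-CINs.

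The 4 CIN-only regions of *Erbb4* lay in introns at 98, 312, 441 and 929 kb from the gene start. The region at 98 kb (chr1:69010001-69010200) ranked at percentiles 63.7 and 60.7 and the region at 441 kb (chr1:68666559-68667547) at 75.8 and 41.1. The region at 929 kb ranked at 57.3 and 32.8, and the one at 312 kb was weak, at 9.6 and 12.1. No H3K27me3 peak touched any of them in any list.

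*Erbb4* also carried broad H3K27me3, in both populations. H3K27me3 covered 38471 and 68575 bp in CINs, with non-CINs at 36924 and 86368 bp, and the groups overlapped. The strongest peak of every list lay in intron 1 just inside the gene, at percentiles 95.0 and 96.1 in CINs, against 96.6 and 98.2 in non-CINs. Bases under an H3K27ac peak that were also under an H3K27me3 peak of the same population and replicate number made up 19.4% and 20.9% of the *Erbb4* H3K27ac bp in CINs, against 22.9% and 17.5% in non-CINs. Over whole lists that share was 1.41% to 2.71%. Both marks on the same chromatin and each mark on different cells of the sort cannot be told apart in these lists. The map of *Erbb4* shows the CIN-only regions outside the H3K27me3 domains.

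**Figure D2:**
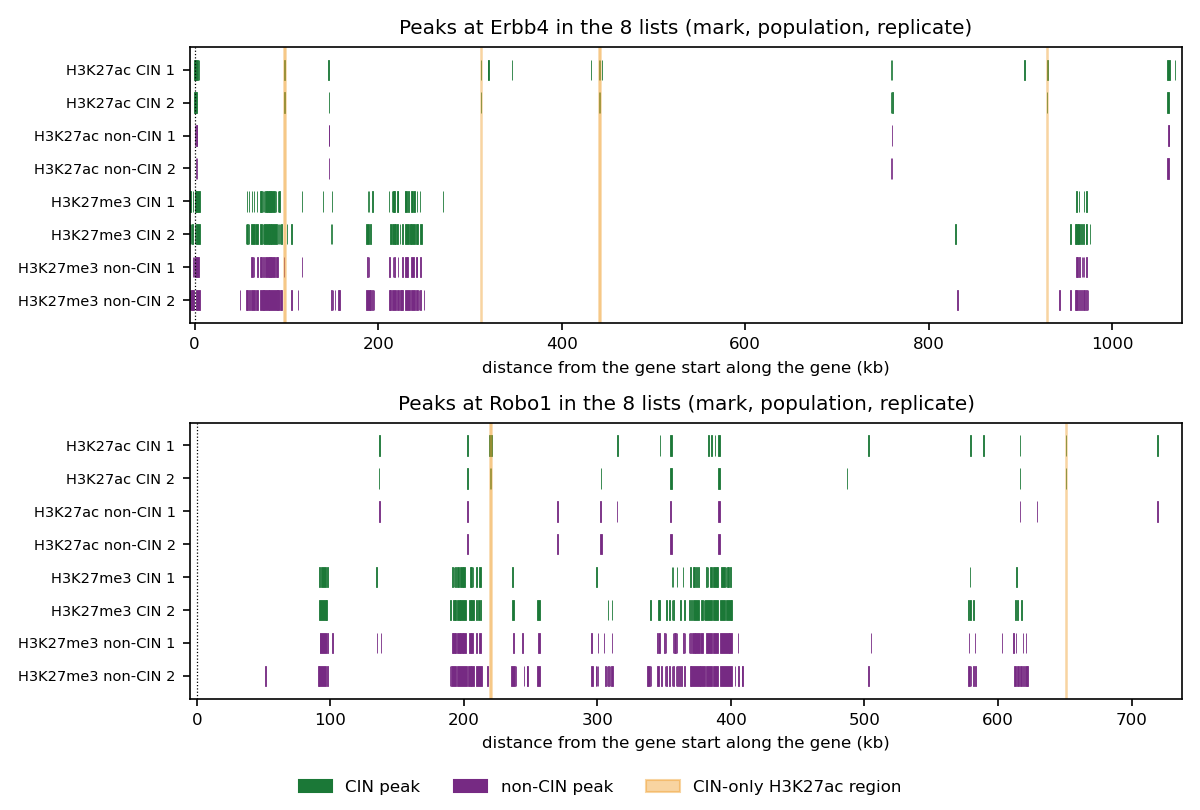
Peaks of the 8 lists along *Erbb4* (top) and *Robo1* (bottom), by distance from the gene start in kb, with 1 row for each mark, population and replicate. Green bars are CIN peaks, purple bars non-CIN peaks and orange bands the CIN-only H3K27ac regions, 4 in *Erbb4* and 2 in *Robo1*, while the longest H3K27me3 domains appear in the rows of both populations.

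*Nrp1* and *Nrp2*, the paired semaphorin and VEGF co-receptors, differed in their promoter state. At *Nrp1*, H3K27ac covered 3939 and 3089 bp in CINs, with non-CINs at 5057 and 4088 bp, so both non-CIN lists were above (ratio of means 0.77). The groups overlapped at −log10 q of at least 4, and with the strongest 30000 peaks of each list the difference of means went from -1058.5 to -133.5 bp. The populations overlapped at its promoter, which ranked at 58.7 and 51.0 in CINs, against 60.2 and 55.6 in non-CINs, with no H3K27me3 in any list. An intronic stretch 57.7 kb from the gene start was called in all 4 lists and went the other way, at percentiles 41.2 and 60.4 in CINs, against 19.8 and 11.4 in non-CINs. H3K27me3 was called in replicate 2 alone, covering 1494 bp in CINs and 1389 bp in non-CINs.

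*Nrp2* resembled *Cxcl12* at its promoter. The H3K27me3 peak there ranked at percentiles 96.7 and 98.3 in CINs, against 98.6 and 98.7 in non-CINs, with a length of 5710 to 7452 bp, over the most CpG-rich of the member promoters in the RefSeq table. H3K27me3 covered 8020 and 13036 bp of the window in CINs, with non-CINs at 9627 and 16107 bp. H3K27ac at the promoter was called in CIN replicate 1 only, at percentile 24.6. Over the whole *Nrp2* window, however, H3K27ac covered 7094 and 3936 bp in CINs, with non-CINs at 3761 and 2312 bp, a ratio of means of 1.82. The CIN lists were above by a margin of 175 bp at the closest pair, and with the strongest 30000 peaks of each list the difference of means turned from 2478.5 to -310.5 bp. At −log10 q of at least 4 the groups overlapped, at 3622 and 2169 bp in CINs, with non-CINs at 2210 and 1734 bp. They also overlapped when peaks were merged at 500 bp. The exonic stretch 80.6 kb into *Nrp2* ranked at 85.0 and 73.8 in CINs, at 58.0 in non-CIN replicate 1, and was not called in non-CIN replicate 2.

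**Figure D3:**
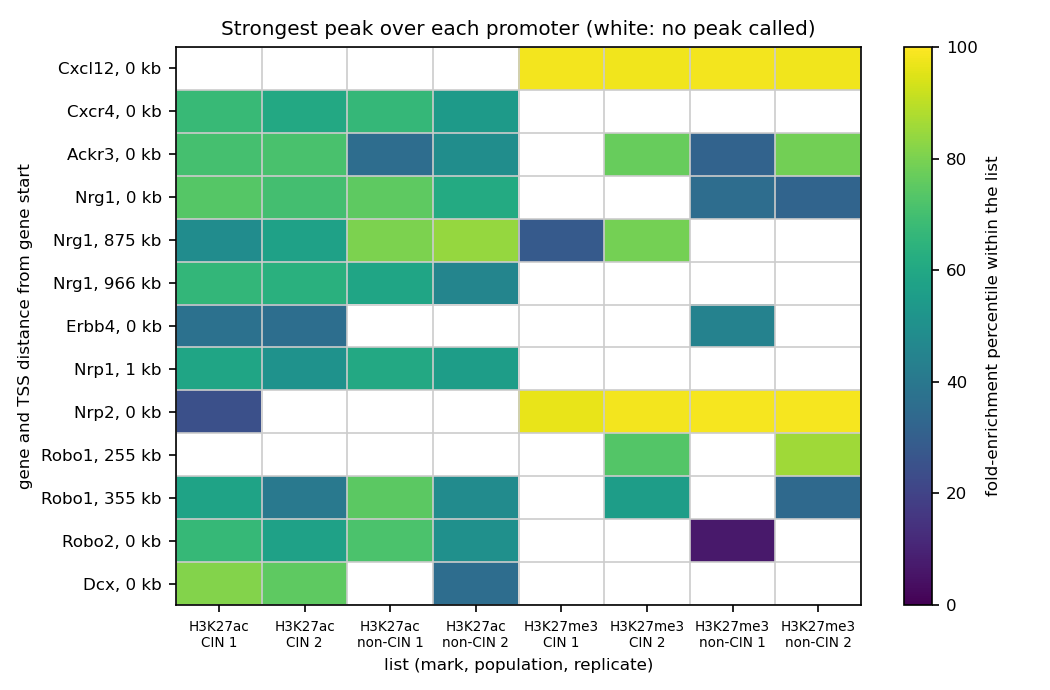
Fold-enrichment percentile within its own list of the strongest peak over each promoter (colour scale 0 to 100, white where no peak was called), for the members' promoters that had a peak, by distance of the TSS from the gene start. H3K27me3 is above percentile 96 in all 4 lists at *Cxcl12* and *Nrp2* and is not called at *Cxcr4*, *Nrp1* and *Dcx*.

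*Robo1* and *Robo2*, receptors for Slits, had more H3K27ac in the CIN lists. At *Robo1*, H3K27ac covered 11273 and 6028 bp in CINs, with non-CINs at 5726 and 4495 bp (ratio of means 1.69). At *Robo2* it covered 11815 and 7547 bp in CINs, with non-CINs at 5512 and 4508 bp (ratio of means 1.93). The margin between populations was narrow at *Robo1*, where CIN replicate 2 was 302 bp above non-CIN replicate 1 (with the strongest 30000 peaks of each list the groups overlapped and the difference of means fell from 3540 to 283 bp), and wider at *Robo2*, where it was 2035 bp. At the active promoters the percentiles of the populations overlapped. The *Robo1* promoter 355 kb into the gene record ranked at 58.1 and 40.6 in CINs, against 74.7 and 48.3 in non-CINs, and the *Robo2* promoter at the gene start at 67.0 and 57.3 in CINs, against 71.6 and 50.3 in non-CINs. RefSeq also lists 2 *Robo2* starts 681 and 1035 kb upstream of this gene start, which the *Robo2* window and these values leave out. At the *Robo2* gene start, the promoter peak of CIN replicate 1 was 4384 bp long. The longest peak anywhere in the *Robo2* window was 1907 bp in CIN replicate 2, and 1458 and 1541 bp in non-CINs.

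Inside the Robo genes, H3K27ac stretches went both ways. The strongest *Robo1* stretch, 203 kb from the gene start and present in all 4 lists, ranked at 93.2 and 83.5 in CINs, against 65.2 and 63.4 in non-CINs. CIN-only regions of *Robo1* lay at chr16:72959035-72959415 (percentiles 49.7 and 56.4) and chr16:72527540-72528929 (32.3 and 10.9), both intronic, and its non-CIN-only region at chr16:72578109-72578469 ranked at 4.3 and 18.8. Those of *Robo2* lay in an intron at chr16:74048979-74049424 (80.4 and 41.8) and over an exon at chr16:73947861-73948524 (32.3 and 6.3). A *Robo2* intronic stretch 322 kb into the gene ranked at 70.0 and 65.9 in CINs, was not called in non-CIN replicate 1 and ranked at 21.9 in non-CIN replicate 2. Another *Robo2* intronic stretch, at 14.5 kb, was called in all 4 lists and went the other way. It ranked at 35.0 and 22.6 in CINs, against 57.1 and 58.8 in non-CINs. A *Robo1* intronic stretch at 303 kb was not called in CIN replicate 1. It ranked at 69.6 in CIN replicate 2 and at 53.8 and 48.4 in non-CINs.

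The H3K27me3 of the Robo genes was unequal in extent. It covered 34153 and 58876 bp of *Robo1* in CINs, with non-CINs at 54920 and 92618 bp, with the strongest peaks at percentiles 95.8 to 98.9. At *Robo2* it covered 1143 and 5915 bp in CINs, with non-CINs at 3722 and 9178 bp, with the strongest peaks at 34.1 to 88.7. In each gene the CIN list was lower within both replicate numbers, with CIN minus non-CIN differences of -20767 and -33742 bp at *Robo1* and of -2579 and -3263 bp at *Robo2*, yet the groups overlapped across numbers. At −log10 q of at least 4 they no longer overlapped at *Robo2*, at 0 and 832 bp in CINs, with non-CINs at 1987 and 8043 bp. When coverage was scaled to the covered length of each list, they no longer overlapped at *Robo1*. Non-CIN-only H3K27me3 regions, defined in the same manner, numbered 1286 in the genome and 5 in the member windows, 4 in *Robo1* introns and 1 over an exon of *Nrp2*. There were 710 CIN-only H3K27me3 regions and none in the windows.

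*Dcx* showed the largest ratio of H3K27ac coverage between CINs and non-CINs of the set. H3K27ac covered 10085 and 6022 bp in the CIN lists, against 217 and 1351 bp in the non-CIN lists. Both CIN lists were above both non-CIN lists, and the ratio of means was 10.27 (8053.5 ± 2873 bp against 784 ± 802 bp, SD, n = 2), with 46.47 within replicate 1 and 4.46 within replicate 2. The CIN lists held 91.1% of the *Dcx* covered bp summed over the 4 lists, above the share at 95.1% of genes with an H3K27ac peak. Over the promoter, H3K27ac ranked at percentiles 81.5 and 75.2 in CINs, was not called in non-CIN replicate 1, and ranked at 35.8 in non-CIN replicate 2. The 1 *Dcx* peak of non-CIN replicate 1 was 217 bp long and lay in an intron at percentile 25.0.

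By the lower of its percentiles in the CIN lists, the strongest CIN-only region of the 10 genes was that in *Dcx* at chrX:143901920-143903081, 1162 bp long, in the third intron of the longest transcript. Its percentiles were 84.5 and 78.4, and by that measure it ranked 93rd of the 4182 CIN-only regions. The others, at chrX:143897967-143898422 and chrX:143881385-143881839, ranked at 35.9 and 60.6, and at 76.0 and 32.9. Upstream of these in the gene, a stretch 26.6 kb from the start was called at 81.3 and 70.6 in CINs, not in non-CIN replicate 1, and at 57.1 in non-CIN replicate 2.

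H3K27me3 lay toward the 3′ end of *Dcx* and not at its promoter. It covered 1806 and 8102 bp in CINs, with non-CINs at 5845 and 19754 bp, so CINs were lower within each replicate number (differences of -4039 and -11652 bp), while the groups overlapped. At −log10 q of at least 4 they did not overlap, at 0 and 1983 bp in CINs, with non-CINs at 3672 and 15829 bp. A stretch 54.8 kb into the gene was called in all 4 lists, at percentiles 34.7 and 66.4 in CINs, against 86.9 and 90.6 in non-CINs. In the replicate 2 lists of both populations, H3K27me3 peaks also touched the CIN-only regions at 30.8 and 35.1 kb, and in non-CIN replicate 2 the one at 51.7 kb, whereas no replicate 1 list had H3K27me3 there.

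**Figure D4:**
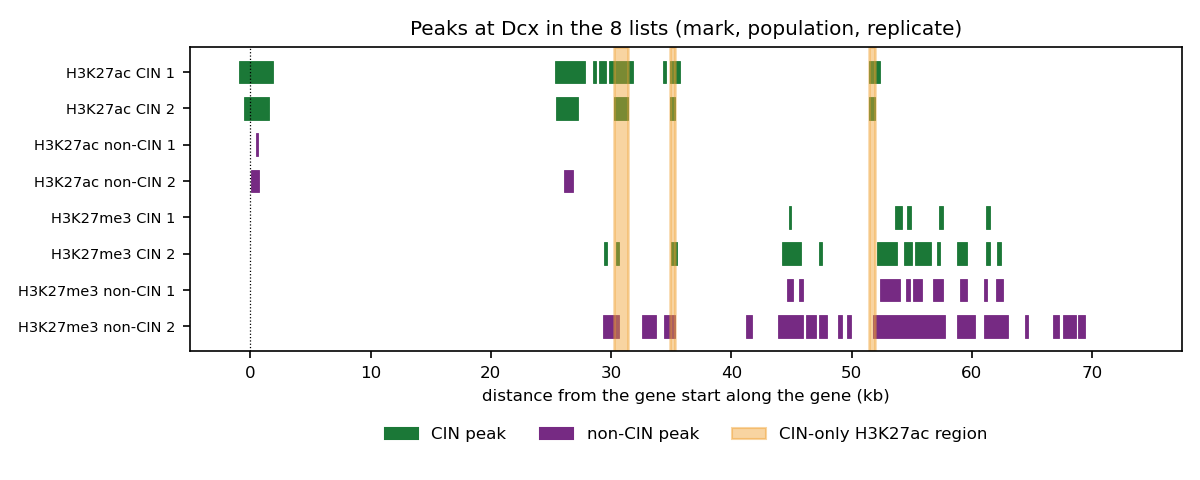
Peaks of the 8 lists along *Dcx*, by distance from the gene start in kb, with 1 row for each mark, population and replicate. Green bars are CIN peaks, purple bars non-CIN peaks and orange bands the 3 CIN-only H3K27ac regions, and H3K27me3 is seen mainly beyond 40 kb, longest in non-CIN replicate 2.

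Regions of 1 population only were then counted over the set. CIN-only H3K27ac regions were held by 5 of the 9 members with a peak (*Nrg1*, *Erbb4*, *Robo1*, *Robo2* and *Dcx*), beside 10.2% of all genes with a peak. Non-CIN-only regions were held by 2 (*Nrg1* and *Robo1*), beside 10.2%. The names depended on the peaks kept. With the strongest 30000 peaks of each list, *Robo1* held no region of either kind and *Ackr3* held 2 CIN-only regions, while *Robo2* and *Cxcr4* each held 1 non-CIN-only region. At −log10 q of at least 4, *Ackr3* again held 2 CIN-only regions, and *Robo2* and not *Robo1* held a non-CIN-only region. Length bears on this count. In windows of 50 kb or more, 5 of 7 members and 23.5% of genes held a CIN-only region. In windows of 500 kb or more, all 4 members and 72.2% of genes held one, and 2 of 4 members and 51.1% of genes held a non-CIN-only region. *Dcx*, at 82.5 kb, was the member holding CIN-only regions outside this longest class. Separate H3K27ac stretches of the 10 windows numbered 112, of which 33 were in all 4 lists, 13 in both CIN lists only, 2 in both non-CIN lists only and 39 in 1 list only. The 139 H3K27me3 stretches were in all 4 lists in 37 cases, in both CIN lists only in 0 and in both non-CIN lists only in 4.

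The CIN share of covered bp puts the members on 1 scale, with 50% where both populations have equal coverage. For H3K27ac the median over 9 members was 64.5%, and over all genes with a peak 50.2%. *Dcx* was highest at 91.1%, followed by *Erbb4* (73.8%), *Ackr3* (73.1%), *Robo2* (65.9%), *Nrp2* (64.5%), *Robo1* (62.9%), *Cxcr4* (55.1%), *Nrp1* (43.5%) and *Nrg1* (41.9%). For H3K27me3 the median over 10 members was 41.8%, and over all genes 48.4%. *Nrg1* was highest at 67.8% and *Dcx* lowest at 27.9%, so these members hold opposite ends of the order in the 2 marks.

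**Figure D5:**
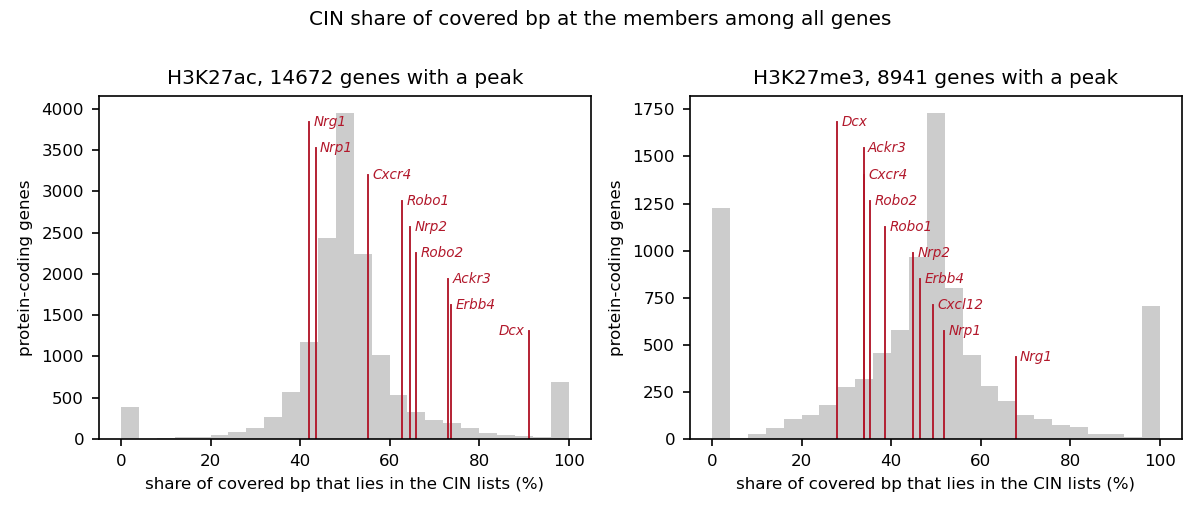
Histograms of the share of covered bp that lies in the CIN lists (percent of the sum over 4 lists) for all protein-coding genes with a peak, H3K27ac left and H3K27me3 right, with the members as red lines. *Dcx* lies at 91.1% for H3K27ac and 27.9% for H3K27me3, and *Nrg1* at 41.9% and 67.8%.

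No member had more H3K27me3 in both non-CIN lists than in both CIN lists, beside 11.1% of all genes. The count became 2 at −log10 q of at least 4, under scaling to list length and with 20 kb upstream. It was 8 without replicate 1 and 6 without replicate 2. When lists were compared within a replicate number only, the non-CIN list was higher in both numbers at 6 of 10 members (*Cxcl12*, *Ackr3*, *Nrp2*, *Robo1*, *Robo2* and *Dcx*), beside 25.4% of genes. At *Cxcl12* the CIN minus non-CIN differences were small, at -58 and -290 bp, and its difference of means changed sign under 4 settings. The H3K27me3 replicate 2 lists covered more of the genome in both populations, which sets replicate 2 of one population against replicate 1 of the other in the comparison across numbers.

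A further 55 genes were taken from the members' pathways and from a list of 17 other migration cues. Of these, 50 had an H3K27ac peak. More covered bp in both CIN lists was found at 12, more in both non-CIN lists at 5, and 33 overlapped, beside the 18.1% and 18.0% of all genes given above. For H3K27me3, 39 had a peak, 5 were above in CINs, 7 above in non-CINs and 27 overlapped, beside 7.34% and 11.1%. By pathway, on counts too small to read against 18.1%, the CIN lists were above in H3K27ac at 4 of 10 semaphorin and plexin genes, 2 of 7 Slit and Robo genes, 2 of 5 neuregulin and ErbB genes, 2 of 9 microtubule genes, 2 of 16 other migration genes and 0 of 3 chemokine genes. Among the genes whose populations did not overlap, the highest CIN shares were those of *Tubb3* (89.3%), the neuronal beta-tubulin, *Cdk5r1* (85.7%), the activator of the migration kinase CDK5, and *Slit1* (74.7%), a Robo ligand. *Tubb3* had 5327 and 3419 bp covered in CINs, with non-CINs at 764 and 286 bp. *Cdk5r1* had 4802 and 2816 bp in CINs, with non-CINs at 701 and 571 bp, and *Slit1* 12135 and 4747 bp in CINs, with non-CINs at 3693 and 2036 bp. At the other end, *Cxcl14*, a chemokine, had 0 bp in both CIN lists and 927 and 464 bp in non-CINs. *Plxnd1*, a semaphorin receptor, had 0 bp in both CIN lists and 474 and 356 bp in non-CINs. *Erbb2*, a partner of other ErbB receptors, had 0 and 346 bp in CINs, with non-CINs at 2089 and 1451 bp.

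For each member, the protein-coding gene whose 8-list pattern lay closest was found from the rank of the window share covered among all genes in each list. *Erbb4* was closest to *Reln*, with a mean absolute difference of 0.862 percentile points over 8 lists, and *Robo2* to *Nrxn3* (1.38). *Cxcl12* was closest to *Kcnh3* (0.037), *Cxcr4* to *Hist3h2a* (0.73), *Nrg1* to *Tax1bp1* (1.45), *Nrp1* to *D5Ertd579e* (0.809), *Nrp2* to *Frmd4b* (1.79) and *Robo1* to *Arhgef28* (0.958). With no H3K27ac peak, *Cxcl12* ties in the H3K27ac lists with every gene without one. Its distance is therefore not comparable with those of the other members. *Ackr3* and *Dcx* had the least close neighbours, *Zfp488* (3.73) and *Metap1d* (3.88).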

How the data were processed

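Native ChIP-seq peak lists from P2 CINs and non-CINs were analysed, with 8 lists and 4 inputs that entered only through the peak calling. Per the labels and the study's methods, the authors mapped reads to mm10 (BWA mem, version 0.7.15), kept well-mapped reads, and ran the broad mode of MACS2 on every replicate separately, with the input of the same sort as control. Model building and local background were turned off. The labels name MACS2 version 2.2.7, and the study's methods name another version. The deposited columns hold a score (a scaled −log10 q), a fold enrichment (a ratio over input) and the p and q values as −log10, all from the authors' peak caller. The lowest −log10 q in a list was 2.21 to 2.60. These are not counts, so the depth behind a peak is unknown and no counting interval is given.

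Peaks were placed on GENCODE vM21 genes (GRCm38.p6; 0 peaks ended past a chromosome end) with Python 3.11.15 and NumPy 2.4.6, and sequences were read with pysam 0.24.0. For one-population regions, peaks 500 bp or less apart were merged, and a region had to recur in both replicates without meeting (by 1 bp or more) a peak of the opposite population with that replicate number. Interval code was tested on simulated data against bedtools 2.31.1 (40 of 40 operations equal; 200 of 200 planted regions recovered). Replicate numbers come from the labels, which describe independent replicate experiments. Same-numbered lists deviated together (r = 0.277 for H3K27ac and 0.445 for H3K27me3, across genes). Samples pool litters, so the spread is between pools.

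The members, gene lists and comparisons were chosen with earlier results of these data known. Named were all members, each of their one-population regions, the 3 pathway genes with the highest and the 3 with the lowest CIN share among those without overlap, and the closest gene to each member. Promoters run from 1 kb before to 100 bp after a TSS.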

Additional observations from a re-analysis of the deposited data

How the results depend on the processing

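Of the differences of means recomputed for single members, leaving out the replicate block, under which such a difference cannot change, 138 stayed within the spread between replicates (1 SD), 13 moved by more, and 1 called without overlap changed sign (*Nrp2* H3K27ac, from 2478.5 to -310.5 bp with the strongest 30000 peaks of each list). Differences at members whose groups overlapped also changed sign. *Cxcr4* H3K27ac went from 788.5 to -100 bp at −log10 q of at least 4 and to -383 bp with the strongest 30000 peaks. For H3K27me3, *Ackr3* went from -889 to 84 bp with the strongest 30000 peaks, *Cxcl12* from -174 to between 29.5 and 745 bp under 4 settings, *Erbb4* from -8123 to 1547 bp without replicate 2 and *Nrp1* from 52.5 to -143 bp at −log10 q of at least 4. The count of members with more H3K27ac in both CIN lists was 6 and stayed between 4 and 7, with *Ackr3*, *Erbb4*, *Robo2* and *Dcx* in it under every calling, scaling, window and merging alternative. *Cxcr4* joined under scaling to list length and without the upstream stretch, *Nrp2* left with stricter calling or merging, and *Nrp2* and *Robo1* left with the strongest 30000 peaks. The count above in both non-CIN lists fell from 2 to 1 (*Nrg1*) at −log10 q of at least 4. For H3K27me3, the CIN count of 1 (*Nrg1*) became 0 at that threshold and 2 under scaling (*Cxcl12* and *Nrg1*), and was 2 without either replicate. The non-CIN count of 0 became 2 at that threshold (*Robo2* and *Dcx*), 2 under scaling (*Ackr3* and *Robo1*), 2 with 20 kb upstream (*Cxcr4* and *Ackr3*), and 6 to 8 without one replicate. With the replicate block, which compares lists only within a number, it was 6, and the block moved no other count of members by more than 1.5 times. CIN-only regions in the windows numbered 13, 6 when replicates had to share 50% of both peaks, and 23 to 36 without one replicate. *Erbb4* held 1 of the 6, and *Robo1* held more than *Erbb4* without replicate 1 (5 against 4). Non-CIN-only regions numbered 2, 4 with no merging, 4 with no replicate block, and 12 to 17 without one replicate. The cause of these shifts was not tested. Leaving out a replicate leaves 1 list per population, so those values have no replicate check.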

Other observations

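One-population H3K27ac regions also lay near members outside the windows used above. *Cxcr4*, which held none in its window, had 3 CIN-only regions within 100 kb outside it. The nearest lay downstream at chr1:128545695-128546376, 45917 bp from the TSS and in no protein-coding gene, with percentiles 64.2 and 62.7. *Cxcr4* also had 1 non-CIN-only region in that range, 99837 bp upstream (48.2 and 6.2). A CIN-only region lay 20387 bp upstream of *Nrp2* at chr1:62682679-62682898 (60.2 and 37.8), with a non-CIN-only region 73020 bp upstream (18.3 and 0.2). Another CIN-only region lay 92451 bp upstream of *Robo1* at chr16:72215648-72215855 (78.8 and 66.0). The nearest non-CIN-only region to *Nrp1* was 85277 bp upstream, at percentiles 5.4 and 18.1. *Cxcl12* and *Ackr3* had no region of either kind within 100 kb. Which gene such a region acts on is not known from these lists.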
